A study of Mus musculus with 8 samples.

Results

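The 39 genes described here encode the macroautophagy machinery, a set of lysosomal proteins and the TFEB family of transcription factors, and they were chosen by symbol from the pathway. All 39 symbols matched an Ensembl gene among the 55536 genes of the count tables (GRCm38, Ensembl release 96), and 38 passed the filter on low counts. RNA was sequenced from CD8+ T cells of C57BL/6 OT-I mice, whose T cell receptor transgene recognises SIINFEKL, a peptide of ovalbumin, and which were crossed to a *Rag1*-deficient background, so that donors of every library lacked the recombinase needed for other T and B cell receptors. Lymph node cells were activated with 100 nM SIINFEKL for 2 days and then expanded for 2 days in 20 ng/ml recombinant human IL-2, together with 10 µM GC7 (4 libraries, GC7) or with the acetic acid vehicle (4 libraries, Mock). GC7 is a spermidine analogue that inhibits deoxyhypusine synthase, the enzyme that starts hypusination of the translation factor eIF5a. The study also proposes effects of GC7 that do not go through eIF5a. The methods call the replicates biological and the sexes of donors randomised, while the labels give neither age nor sex per library nor whether the replicates came from separate mice. The p-values below therefore measure the spread between these libraries, which may include technical spread.

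Autophagy encloses cytoplasm in a double membrane and delivers it to lysosomes for breakdown. The ULK1 kinase complex starts the process, the class III PI3-kinase VPS34 marks the growing membrane with PI3P, WIPI proteins read that lipid, and ATG2 and ATG9 supply membrane lipid. Conjugation enzymes then attach the ubiquitin-like ATG8 proteins (the LC3 and GABARAP families) to the membrane, where cargo receptors such as p62 dock. TFEB, TFE3 and MITF bind E-boxes of the CLEAR type in promoters of lysosomal and autophagy genes, and TFEB and TFE3 are held in the cytoplasm when mTORC1 phosphorylates them at the lysosome. Activated CD8+ T cells use autophagy, and T cells without it form memory poorly. In B cells, hypusinated eIF5a is known to support translation of TFEB protein, a step that transcript counts do not measure. The study measured autophagic flux by LC3 protein and reports a fall with GC7 and after knockout of *Eif5a*. Knockout of the hypusination enzymes *Dhps* or *Dohh* left the flux unaffected there.

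Counts per library ranged from 20045041 to 25284730 in Mock (median 21247332) and from 17528776 to 23449164 in GC7 (median 20567548). Levels are given as CPM, the counts of a gene over the library's counts in tested genes, put on the usual per-million scale and divided by TMM factors of 0.935 to 0.983 in Mock and 1.03 to 1.04 in GC7. The test covered every gene above 3 CPM in 4 or more libraries, a level that in the smallest library is 52.6 counts. Mock library 2 stood apart from the other Mock libraries on the second principal component, which held 5.98% of the variance beside 85.4% on the first, so that counts are also given without it. The cells carried CD8 T cell transcripts. All 8 markers of the list were above 1 CPM, with a summed level of 4800 to 5624 CPM in Mock and 3983 to 4323 CPM in GC7. Of these markers 5 fell, 1 rose (*Cd8a*) and 2 were not called. That is 62.5% lower and 12.5% higher, beside 23.5% lower and 23.0% higher among all genes tested. Of 12 markers of myeloid cells, which are rich in lysosomes, 11 stayed under 1 CPM in every library (summed level 0.513 to 0.667 CPM in Mock and 0.195 to 0.725 CPM in GC7), *C1qa* and *C1qb* were at 0 in all 8, and only *Cd74* was tested (2.10 CPM in Mock and 12.3 CPM in GC7). Of 6 B cell markers, *Ms4a1* and *Pax5* were at 0 throughout, and the list summed to 460 to 574 CPM in Mock and 269 to 294 CPM in GC7, nearly all from *Ighm*. The 4 NK cell markers summed to at most 1.14 CPM, the CD4 T cell list without *Zbtb7b* to at most 2.43 CPM, and the stromal and erythroid list without *Pecam1* to at most 1.36 CPM. In bulk RNA, fewer cells of a type and less RNA per cell cannot be told apart, and the part of these markers in the results below was not tested.

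The genes changed in both directions and mostly by little. Of the 38 tested genes, 5 rose (*Atg5*, *Gabarapl1*, *Lamp1*, *Lamp2* and *Ctsd*), 8 fell (*Tfeb*, *Pik3c3*, *Wipi1*, *Atg2a*, *Atg9a*, *Atg7*, *Map1lc3b* and *Sqstm1*) and 25 were not called, with edgeR's quasi-likelihood test and a Benjamini-Hochberg adjusted p under 0.01 over all 11189 genes tested. These are 13.2% higher and 21.1% lower, beside 23.0% higher and 23.5% lower among all genes tested. Past a 2-fold change, 0 members were higher and 1 was lower (*Wipi1*), beside 3.17% and 5.31% of all genes tested. At an unadjusted p under 0.05, 19 of the 38 and 7121 of all genes tested passed. The median log2 fold change of GC7 over Mock was -0.01 for the 38 and 0.02 for all genes, and the median absolute change was 0.19 against 0.29. For 17 members the fitted change was under 0.1 in absolute log2 units, and the members' standard errors ran from 0.055 to 0.15. The groups did not overlap for 17 of the 38 (all 13 called members and *Atg4b*, *Atg4d*, *Optn* and *Tfe3*), beside 55.6% of all genes tested. Without Mock library 2 the counts were 5 higher and 7 lower, and without Mock library 4 or GC7 library 4 they were 3 higher and 6 lower. Scaling by library totals in place of TMM gave 7 higher and 5 lower members, with 61.9% of the calls over all genes higher against 49.5%.

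**Figure D1:**
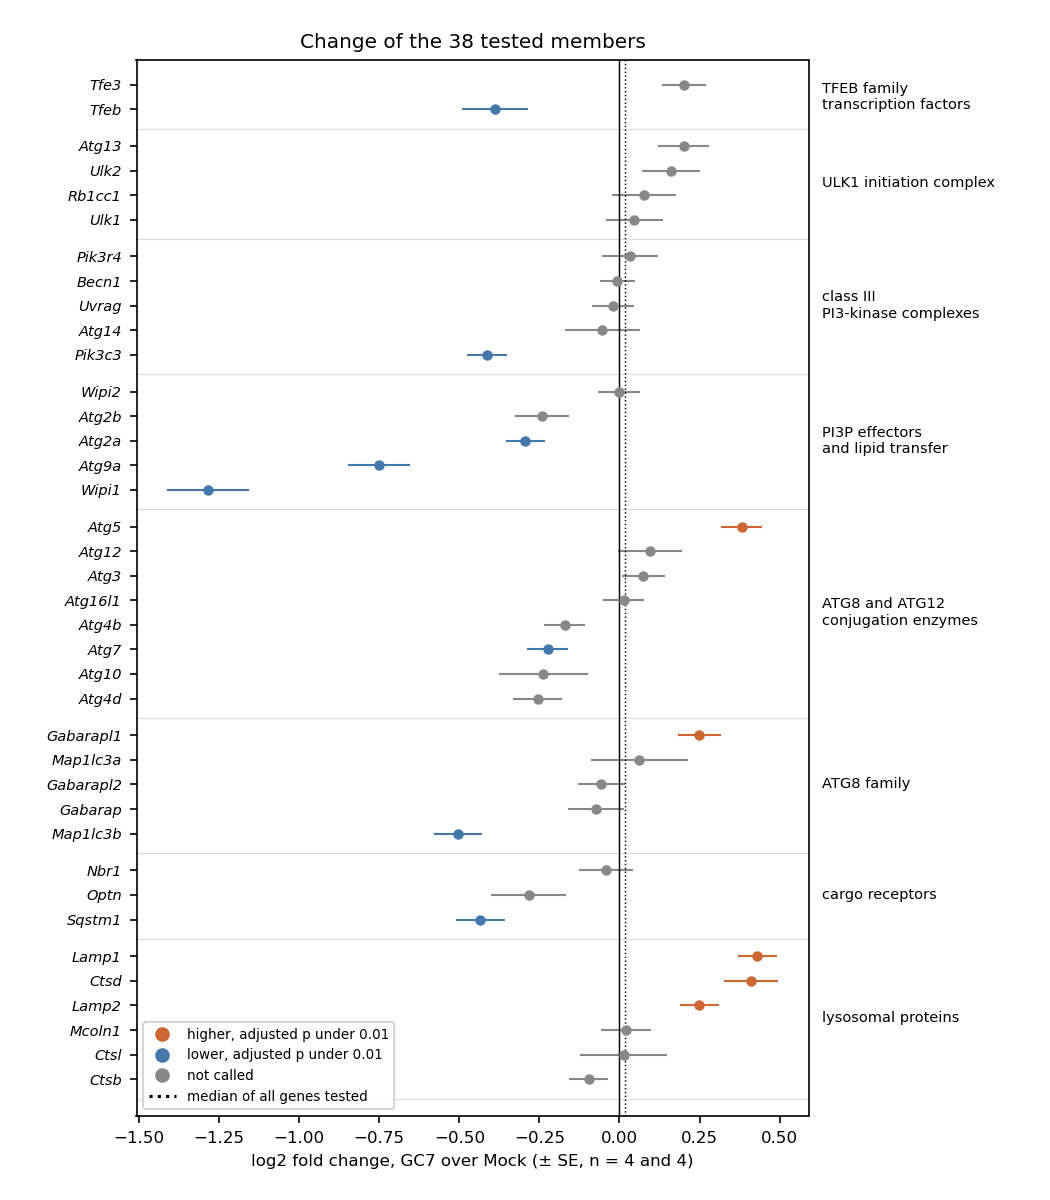
Log2 fold change of GC7 over Mock for each of the 38 tested members, grouped by role, with standard errors as bars; colours mark genes called higher, lower or not called at an adjusted p under 0.01, and the dotted line is the median of all genes tested. *Wipi1* lies furthest from 0 at -1.28, 3 of the 8 lower calls lie in the PI3P and lipid transfer group, and the 3 called lysosomal proteins all lie above 0.

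Of the transcription factors, *Tfeb* fell. The gene (ENSMUSG00000023990, chr17:47737030-47792419, plus strand) was at 23.0, 29.3, 24.0 and 25.7 CPM in Mock libraries 1 to 4 and 19.6, 22.3, 16.7 and 19.2 CPM in GC7 libraries 1 to 4. Every GC7 library was below every Mock library, and the log2 fold change was -0.39 ± 0.10 (SE, adjusted p = 0.00603). This call did not hold in 5 of the 8 fits that leave out 1 library. The adjusted p was 0.0127 without Mock library 2 (log2 fold change -0.31), 0.0160 without Mock library 4, 0.0149 without GC7 library 1, 0.0161 without GC7 library 3 and 0.0178 without GC7 library 4. *Tfe3*, the paralogue that shares the same DNA motif, was at 25.5, 23.5, 24.9 and 26.2 CPM in Mock libraries 1 to 4 and 27.5, 30.5, 27.8 and 29.2 CPM in GC7 libraries 1 to 4. Its GC7 libraries all lay above its Mock libraries, but the change was not called (log2 fold change 0.20 ± 0.069 (SE), adjusted p = 0.0239). *Mitf*, best known from melanocytes and osteoclasts, was too low for the filter, with 3, 6, 9 and 6 counts in Mock libraries 1 to 4 and 27, 20, 27 and 27 counts in GC7 libraries 1 to 4. These counts correspond to 0.154, 0.255, 0.419 and 0.301 CPM in Mock and 1.31, 0.910, 1.51 and 1.13 CPM in GC7, and every GC7 library was above every Mock library. In a fit without the filter, over 28350 genes, *Mitf* was higher in GC7 by 2.06 log2 units with an adjusted p of 5.29e-07. Having failed the filter of the main test, it is not counted among the called members.

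In means ± SD over 4 libraries, as for every ± without SE below, *Tfeb* was the highest of the family per kilobase of exon and *Mitf* the lowest in Mock, at 4.49 ± 0.49 CPM per kilobase for *Tfeb*, 2.70 ± 0.12 CPM per kilobase for *Tfe3* and 0.0456 ± 0.018 CPM per kilobase for *Mitf*. In GC7 the first 2 lay closer, with 3.43 ± 0.41 CPM per kilobase for *Tfeb* and 3.11 ± 0.15 CPM per kilobase for *Tfe3*, while *Mitf* was at 0.196 ± 0.041 CPM per kilobase. The level of *Tfeb* over that of *Tfe3* per kilobase ran from 1.47 to 2.04 in the Mock libraries and from 0.979 to 1.20 in the GC7 libraries, so that the ranges did not overlap. *Tfeb* thus made up 61.9% ± 3.3 (SD, n = 4) of the family's summed level per kilobase in Mock and 50.8% ± 2.5 in GC7. The sum itself overlapped between the groups, at 6.83 to 7.75 CPM per kilobase in Mock and 6.19 to 7.39 in GC7.

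None of the 4 tested genes of the ULK1 initiation complex was called, and at an unadjusted p under 0.05 only *Atg13* passed. Library totals called *Atg13* higher (adjusted p = 0.00807), while DESeq2 and limma-voom called none of the 4. *Ulk1*, the starting kinase, was at 52.9 ± 4.4 CPM in Mock and 54.7 ± 6.1 CPM in GC7 and its homologue *Ulk2* at 30.8 ± 2.6 CPM in Mock and 34.4 ± 3.6 CPM in GC7. *Atg13*, the adaptor that links the kinase to its scaffold, was at 37.0 ± 1.9 CPM in Mock and 42.5 ± 4.2 CPM in GC7, and *Rb1cc1*, which encodes that scaffold FIP200, was at 29.6 ± 3.9 CPM in Mock and 31.2 ± 2.7 CPM in GC7. The 4 fitted changes ran from 0.05 to 0.20 log2 units, with adjusted p from 0.0443 (*Atg13*) to 0.668 (*Ulk1*). The groups overlapped for each of the 4. With 1 library left out, the change of *Ulk1* was -0.028 without GC7 library 3 and -0.00066 without Mock library 2, and that of *Rb1cc1* was -0.013 without Mock library 2, so that no direction is drawn for either.

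Of the 5 tested genes of the class III PI3-kinase complexes, only the catalytic subunit fell. *Pik3c3*, which encodes VPS34, was at 49.3, 46.3, 45.5 and 49.5 CPM in Mock libraries 1 to 4 and 34.8, 34.8, 36.8 and 36.6 CPM in GC7 libraries 1 to 4. All GC7 libraries were below the lowest Mock library, and the log2 fold change was -0.41 ± 0.062 (SE, adjusted p = 0.000109). The other subunits were not called, with fitted changes between -0.05 and 0.03. *Becn1*, the scaffold of both complexes, was at 94.4 ± 2.8 CPM in Mock and 94.0 ± 2.9 CPM in GC7. *Pik3r4*, the regulatory kinase-like subunit VPS15, was at 39.1 ± 4.4 CPM in Mock and 40.1 ± 2.7 CPM in GC7. *Atg14*, which directs the complex to autophagosome formation, was at 11.1 ± 1.3 CPM in Mock and 10.7 ± 1.2 CPM in GC7, and *Uvrag*, its counterpart in the endosomal complex, was at 42.7 ± 2.2 CPM in Mock and 42.1 ± 1.8 CPM in GC7. For *Becn1* 3104 of 7065 exon bases lie under *Cntd1* on the other strand, itself at 2.46 and 3.10 CPM. The strand setting of the counting is not stated, so reads of such pairs cannot be told apart.

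The PI3P readers and lipid transfer proteins held 3 of the 8 lower calls and the largest change of the 38 tested members. *Wipi1* (ENSMUSG00000041895, chr11:109573331-109611967, minus strand) encodes a PI3P-binding protein of the early autophagosome and is often used as a transcript marker of autophagy. It was at 12.9, 12.8, 14.8 and 13.4 CPM in Mock libraries 1 to 4 and 5.16, 4.73, 7.14 and 5.22 CPM in GC7 libraries 1 to 4. The GC7 libraries were all under the lowest Mock library, so that the level fell by 58.9% (log2 fold change -1.28 ± 0.13 (SE), adjusted p = 3.99e-06), and the change stayed between -1.42 and -1.19 in all 15 alternatives. Its paralogue *Wipi2*, which recruits ATG16L1, was at 63.2 ± 1.4 CPM in Mock and 63.1 ± 4.6 CPM in GC7, with a change of -0.0023 ± 0.065 (SE).

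*Atg9a*, the lipid scramblase of the vesicles that seed the membrane, was at 36.3, 26.2, 34.1 and 34.5 CPM in Mock libraries 1 to 4 and 19.8, 19.3, 19.0 and 19.7 CPM in GC7 libraries 1 to 4. GC7 libraries were close to each other and below all Mock libraries, of which Mock library 2 was the lowest, and the log2 fold change was -0.75 ± 0.097 (SE, adjusted p = 3.37e-05). *Atg2a*, one of the paralogous lipid transfer proteins, was at 52.4, 55.7, 52.4 and 55.3 CPM in Mock libraries 1 to 4 and 44.0, 42.5, 46.8 and 42.9 CPM in GC7 libraries 1 to 4. It fell with no overlap between the groups (log2 fold change -0.29 ± 0.061 (SE), adjusted p = 0.00129). Its paralogue *Atg2b* was not called, at 74.4 ± 8.8 CPM in Mock and 62.9 ± 2.2 CPM in GC7 (log2 fold change -0.24 ± 0.083 (SE), adjusted p = 0.0248), and Mock library 2 was the lowest Mock library at 61.6 CPM. Without that library *Atg2b* passed, with a log2 fold change of -0.32 and an adjusted p of 0.000167.

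**Figure D2:**
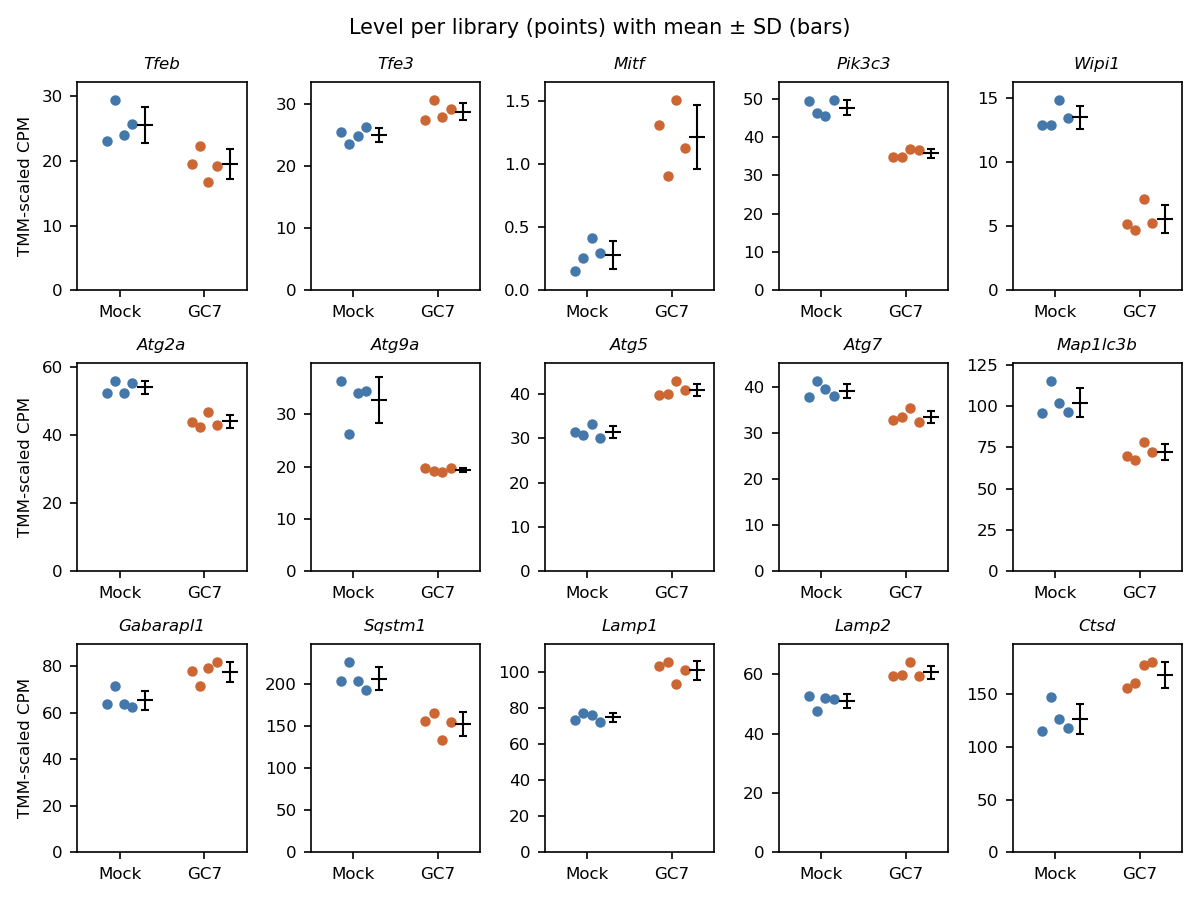
TMM-scaled CPM in each library for the 3 TFEB family members and the other 12 called members, with 4 Mock and 4 GC7 points per gene and the mean ± SD beside them on axes that start at 0. The 2 groups do not overlap in any panel, *Mitf* and *Wipi1* show the widest gaps for their level, and *Lamp1*, *Lamp2*, *Ctsd*, *Atg5* and *Gabarapl1* are higher in GC7.

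The conjugation enzymes split. *Atg5*, whose product is joined to ATG12 and forms the ligase for ATG8 lipidation, was at 31.5, 30.8, 33.1 and 30.0 CPM in Mock libraries 1 to 4 and 39.6, 40.0, 42.7 and 40.9 CPM in GC7 libraries 1 to 4. All GC7 libraries were above the highest Mock library and the log2 fold change was 0.38 ± 0.063 (SE, adjusted p = 0.000250). *Atg7*, the E1-like enzyme that activates both ATG8 and ATG12, was at 37.7, 41.1, 39.5 and 37.9 CPM in Mock libraries 1 to 4 and 32.7, 33.4, 35.4 and 32.4 CPM in GC7 libraries 1 to 4. It was lower without overlap (log2 fold change -0.22 ± 0.064 (SE), adjusted p = 0.00915), close to the threshold. With 1 library left out the call held only without GC7 library 3, and the adjusted p in the other 7 such fits ran from 0.0115 (without Mock library 2) to 0.0320 (without GC7 library 4). The adjusted p was also 0.0853 with library totals, 0.0405 with no filter and 0.0174 with replicate number as a block. It lay just over 0.01 with filterByExpr.

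The other 6 conjugation genes were not called, with fitted changes from -0.26 to 0.09. *Atg3*, the E2-like enzyme for ATG8, was at 52.1 ± 4.0 CPM in Mock and 54.8 ± 2.0 CPM in GC7, and *Atg10*, the E2-like enzyme for ATG12, at 5.35 ± 0.33 CPM in Mock and 4.56 ± 0.77 CPM in GC7. *Atg12* itself was at 39.6 ± 1.1 CPM in Mock and 42.4 ± 7.1 CPM in GC7 and *Atg16l1*, the partner that sets the place of lipidation, at 40.9 ± 2.4 CPM in Mock and 41.2 ± 0.60 CPM in GC7. Of the proteases that prime ATG8 and remove it from membranes, *Atg4b* and *Atg4d* had fitted changes below 0. Their relative *Atg4a*, outside the set, was at 25.3 ± 1.8 CPM in Mock and 26.1 ± 2.4 CPM in GC7. It was not called (log2 fold change 0.040 ± 0.084 (SE), adjusted p = 0.699), and *Atg4c* was too low for the filter. *Atg4b* was at 55.4 ± 1.3 CPM in Mock and 49.3 ± 3.1 CPM in GC7 (log2 fold change -0.17 ± 0.064 (SE), adjusted p = 0.0352) and *Atg4d* at 32.7 ± 2.7 CPM in Mock and 27.4 ± 1.4 CPM in GC7 (log2 fold change -0.26 ± 0.077 (SE), adjusted p = 0.0120). Without GC7 library 3 the adjusted p of *Atg4b* was 0.00929, and without Mock library 1 that of *Atg4d* was 0.00671. *Atg4d* shares 1405 of 7264 exon bases with *Kri1* on the other strand (37.1 CPM in Mock and 32.1 CPM in GC7).

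In the ATG8 family the LC3 and GABARAP branches gave 1 call each, in opposite directions. *Map1lc3b* (ENSMUSG00000031812, chr8:121590361-121598760, plus strand), the source of the LC3B protein used to follow autophagosomes, was at 95.7, 115, 102 and 96.3 CPM in Mock libraries 1 to 4 and 70.1, 67.1, 78.6 and 72.3 CPM in GC7 libraries 1 to 4. Every GC7 library was below every Mock library, and the log2 fold change was -0.50 ± 0.075 (SE, adjusted p = 0.000108). *Gabarapl1* was at 63.7, 71.2, 63.6 and 62.2 CPM in Mock libraries 1 to 4 and 77.7, 71.5, 79.3 and 81.4 CPM in GC7 libraries 1 to 4. The lowest GC7 library, at 71.5 CPM, was just above the highest Mock library, at 71.2 CPM, and the log2 fold change was 0.25 ± 0.067 (SE, adjusted p = 0.00650). This call was lost in 6 of the 8 fits that leave out 1 library, with adjusted p from 0.0152 (without GC7 library 3) to 0.0289 (without GC7 library 4), and held only without Mock library 2 or GC7 library 2.

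The remaining family members were not called. *Gabarap* was at 127, 161, 135 and 129 CPM in Mock libraries 1 to 4 and 121, 124, 145 and 135 CPM in GC7 libraries 1 to 4 (log2 fold change -0.07 ± 0.086 (SE), adjusted p = 0.482). *Gabarapl2*, also known as GATE-16, was at 38.1, 44.0, 36.7 and 39.3 CPM in Mock libraries 1 to 4 and 40.4, 37.0, 38.7 and 36.0 CPM in GC7 libraries 1 to 4 (log2 fold change -0.06 ± 0.074 (SE), adjusted p = 0.525), and a processed pseudogene with 99.4% identity over 349 bases, *Gm3724*, was at 2.60 and 2.74 CPM. *Map1lc3a* was at 5.18, 7.78, 5.17 and 6.16 CPM in Mock libraries 1 to 4 and 7.35, 5.60, 6.25 and 6.27 CPM in GC7 libraries 1 to 4 (log2 fold change 0.06 ± 0.15 (SE), adjusted p = 0.743). The libraries of the groups overlapped for each of these genes, and Mock library 2 was the highest Mock library for all 5 ATG8 genes.

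Set against exon length, the order of levels in Mock was *Gabarap* (74.9 ± 8.5 CPM per kilobase), *Gabarapl1* (32.4 ± 2.0 CPM per kilobase), *Gabarapl2* (17.0 ± 1.4 CPM per kilobase), *Map1lc3b* (13.6 ± 1.2 CPM per kilobase) and *Map1lc3a* (5.14 ± 1.0 CPM per kilobase). The order was the same in GC7, with 71.2 ± 5.9 CPM per kilobase, 38.5 ± 2.1 CPM per kilobase, 16.4 ± 0.82 CPM per kilobase, 9.58 ± 0.65 CPM per kilobase and 5.39 ± 0.62 CPM per kilobase. The ranges of neighbours in this order did not overlap in either group. Exon length here is the union of all annotated exons, which is long for *Map1lc3b* (7517 bases) beside *Gabarap* (1844 bases), so that the levels per kilobase depend on which ends are used. Of the summed ATG8 level per kilobase, *Map1lc3b* held 9.50% ± 0.18 (SD, n = 4) in Mock and 6.79% ± 0.12 in GC7, while *Gabarapl1* held 22.7% ± 0.82 and 27.3% ± 0.96. The summed level itself overlapped, at 134 to 164 CPM per kilobase in Mock and 132 to 150.4 in GC7.

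**Figure D3:**
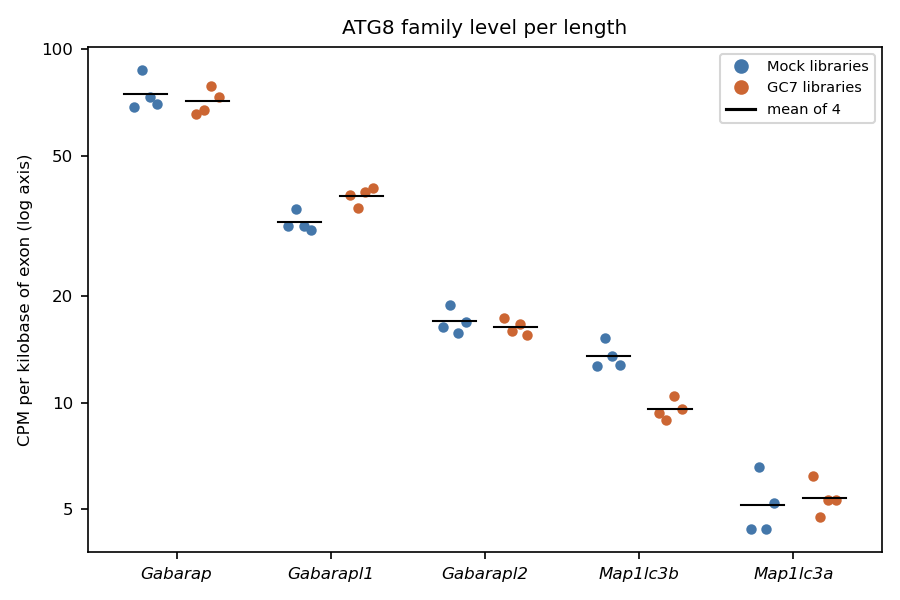
Level of the 5 ATG8 family members per kilobase of exon on a log axis, with 1 point per library and a bar for the mean of 4. *Map1lc3b* is lower in all GC7 libraries (8.93 to 10.5 against 12.7 to 15.3 CPM per kilobase), *Gabarapl1* is higher, and the points of the other 3 overlap.

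Among the cargo receptors, *Sqstm1* (ENSMUSG00000015837, chr11:50199366-50210827, minus strand), which encodes p62, a receptor for ubiquitinated cargo that is itself degraded with it, was at 203, 225, 203 and 192 CPM in Mock libraries 1 to 4 and 155, 165, 133 and 155 CPM in GC7 libraries 1 to 4. The highest GC7 library was below the lowest Mock library, and the log2 fold change was -0.44 ± 0.076 (SE, adjusted p = 0.000382). *Nbr1*, a receptor that binds p62, was at 61.4 ± 1.9 CPM in Mock and 59.7 ± 7.9 CPM in GC7 and overlapped between the groups (log2 fold change -0.04 ± 0.085 (SE), adjusted p = 0.684). *Optn*, a receptor for mitochondria and bacteria, was at 10.5 ± 1.3 CPM in Mock and 8.67 ± 0.82 CPM in GC7. It did not overlap but was not called (log2 fold change -0.28 ± 0.12 (SE), adjusted p = 0.0526).

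The lysosomal proteins of the set were the one role with only higher calls, 3 of 6, beside 23.0% of all genes tested. This did not extend to the lysosomal hydrolases and membrane proteins outside the set, with 7 higher and 12 lower calls of 35 tested. *Lamp1* (ENSMUSG00000031447, chr8:13159161-13175338, plus strand), a major glycoprotein of the lysosomal membrane and, on the surface of T cells, the degranulation marker CD107a, was at 73.1, 77.3, 76.1 and 72.1 CPM in Mock libraries 1 to 4 and 103, 105, 93.4 and 101 CPM in GC7 libraries 1 to 4. All GC7 libraries were above all Mock libraries, and the log2 fold change was 0.43 ± 0.060 (SE, adjusted p = 5.93e-05). *Ctsd* (ENSMUSG00000007891, chr7:142375911-142388038, minus strand), the aspartic protease cathepsin D, was at 116, 147, 127 and 118 CPM in Mock libraries 1 to 4 and 156, 160.3, 178 and 180.2 CPM in GC7 libraries 1 to 4. The lowest GC7 library was above the highest Mock library, again Mock library 2, and the log2 fold change was 0.41 ± 0.084 (SE, adjusted p = 0.00113). *Lamp2*, whose product is needed for fusion of autophagosomes with lysosomes, was at 52.6, 47.7, 51.9 and 51.7 CPM in Mock libraries 1 to 4 and 59.4, 59.6, 63.9 and 59.4 CPM in GC7 libraries 1 to 4. It was higher without overlap (log2 fold change 0.25 ± 0.061 (SE), adjusted p = 0.00365), and the adjusted p was 0.0104 without Mock library 4 and 0.0102 without GC7 library 4.

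The other 3 lysosomal genes were not called. *Ctsb*, the cysteine protease cathepsin B, was at 194 ± 9.0 CPM in Mock and 181 ± 9.3 CPM in GC7 (log2 fold change -0.10 ± 0.061 (SE), adjusted p = 0.197), and *Ctsl*, cathepsin L, at 9.64 ± 0.49 CPM in Mock and 9.77 ± 2.1 CPM in GC7 (log2 fold change 0.01 ± 0.14 (SE), adjusted p = 0.940). *Mcoln1*, the calcium channel of the lysosome that acts upstream of TFEB, was at 31.0 ± 1.1 CPM in Mock and 31.5 ± 3.0 CPM in GC7 (log2 fold change 0.02 ± 0.078 (SE), adjusted p = 0.825). *Ctsb* shares 774 of 6051 exon bases with *Fdft1* on the other strand, a sterol synthesis gene at 153 CPM in Mock and 62.6 CPM in GC7. GC7 library 3 was the highest for *Ctsl* (12.9 CPM), and without it the fitted change was -0.15 with an adjusted p of 0.198.

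Because TFEB family proteins bind CACGTG, promoter windows from RefSeq (GRCm38.p6, 250 bases before to 50 after each start) were searched for CACGTG and for the longer TCACGTGA, which contains it. Both read the same on either strand. Windows were held for 32 of the 39 genes, without *Map1lc3a*, *Rb1cc1*, *Becn1*, *Atg16l1*, *Atg12*, *Pik3c3* and *Ctsb*. CACGTG was present in 8 of the 32 (25%), namely *Lamp1*, *Ctsd*, *Ctsl*, *Mcoln1*, *Atg3*, *Atg5*, *Atg7* and *Atg14*, beside 8.09% of 27025 genes with a window and 12.2% of the tested genes with one. The longer form was present in *Ctsd*, *Mcoln1* and *Atg3* (9.38% of the 32, beside 1.12% of all genes and 2.51% of tested genes). The windows of *Atg7*, *Atg14* and *Ctsl* lie inside the annotated genes, downstream of their outermost starts.

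The 250 bases before the start are shown for the 4 genes with more than 1 match, of which *Lamp1* and *Ctsd* rose and *Mcoln1* and *Atg3* were not called. They read 5′ to 3′ on the strand of the gene, with the matches in capitals (chr8:13158911-13159160, plus strand, for *Lamp1*; chr7:142387828-142388077, minus strand, for *Ctsd*; chr8:3500269-3500518, plus strand, for *Mcoln1*; chr16:45158579-45158828, plus strand, for *Atg3*).
Lamp1: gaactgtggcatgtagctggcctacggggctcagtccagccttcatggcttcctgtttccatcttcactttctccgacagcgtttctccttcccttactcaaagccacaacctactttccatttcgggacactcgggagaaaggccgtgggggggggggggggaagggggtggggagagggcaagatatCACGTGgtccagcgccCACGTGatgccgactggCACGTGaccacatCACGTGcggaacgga
Ctsd: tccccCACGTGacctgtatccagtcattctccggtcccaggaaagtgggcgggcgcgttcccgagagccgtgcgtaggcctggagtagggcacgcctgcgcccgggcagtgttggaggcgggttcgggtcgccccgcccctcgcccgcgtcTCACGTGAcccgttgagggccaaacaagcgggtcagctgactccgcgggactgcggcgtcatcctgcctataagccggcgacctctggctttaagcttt
Mcoln1: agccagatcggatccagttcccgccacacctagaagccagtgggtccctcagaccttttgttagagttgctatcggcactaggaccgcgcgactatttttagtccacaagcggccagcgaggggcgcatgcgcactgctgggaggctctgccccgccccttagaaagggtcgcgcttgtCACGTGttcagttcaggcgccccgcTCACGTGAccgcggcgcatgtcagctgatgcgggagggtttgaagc
Atg3: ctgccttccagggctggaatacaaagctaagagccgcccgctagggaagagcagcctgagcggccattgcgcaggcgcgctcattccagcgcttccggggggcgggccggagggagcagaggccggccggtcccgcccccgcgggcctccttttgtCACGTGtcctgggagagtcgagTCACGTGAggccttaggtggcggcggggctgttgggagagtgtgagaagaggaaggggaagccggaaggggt
*Lamp1* holds 4 copies, which begin 61, 45, 28 and 15 bases before the start. *Ctsd* has 1 copy 245 bases and 1 copy 98 bases before it, the second within TCACGTGA. In *Mcoln1* the copies begin at 71 and 45 bases and in *Atg3* at 94 and 71 bases before the start, and in both genes the one nearer the start lies within TCACGTGA.

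Read against the calls, CACGTG was in 3 of the 5 members that rose (*Lamp1*, *Ctsd* and *Atg5*), in 1 of the 7 members that fell and have a window (*Atg7*), and in 4 of the 19 that were not called and have one. Over all tested genes with a window the share was 11.8% of 1901 higher, 12.3% of 1961 lower and 12.4% of 4469 not called. In the other autophagy and lysosome lists below, CACGTG was present in *Ctsa*, *Gla*, *Glb1*, *Naglu*, *Cln3*, *Bnip3*, *Atp6v0d1* and *Lamtor1*, which fell. Uncalled genes of these lists held it too, among them *Nrbf2*, *Rubcn*, *Lgmn*, *Gaa*, *Sgsh*, *Atp6v0b*, *Atp6v0e* and *Atp6v1a*. Other genes that fell have a window without it, such as *Tecpr1*, *Pink1*, *Smpd1*, *Grn*, *Rragd* and *Rraga*. Of the higher genes of those lists that have a window, only *Fnip1* held it. A link between a match and the direction of change was not tested. A match is a string of letters in these windows and not a measured binding site.

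Other genes of the pathway, from 4 further lists, give the surroundings of these values. Of 30 other autophagy genes, 27 were tested, 4 rose and 7 fell, with a median log2 fold change of -0.13. These are 14.8% higher and 25.9% lower, beside 23.0% higher and 23.5% lower among all genes tested. The falls were led by the mitophagy receptors *Bnip3*, at 421 ± 8.2 CPM in Mock and 82.0 ± 19 CPM in GC7 (log2 fold change -2.36 ± 0.14 (SE), adjusted p = 4.13e-08), and *Bnip3l*, at 321 ± 8.0 CPM in Mock and 107 ± 6.2 CPM in GC7 (log2 fold change -1.58 ± 0.061 (SE), adjusted p = 1.13e-09). *Tecpr1*, a tethering factor between autophagosomes and lysosomes, was at 222 ± 7.3 CPM in Mock and 103 ± 2.7 CPM in GC7 (log2 fold change -1.11 ± 0.055 (SE), adjusted p = 9.09e-09). These 3 falls are each over 2-fold. Among the rises were *Trp53inp1*, a p53 target that binds ATG8 proteins, at 172 ± 28 CPM in Mock and 412 ± 97 CPM in GC7 (log2 fold change 1.26 ± 0.15 (SE), adjusted p = 1.96e-05), *Stx17*, the SNARE of the autophagosome, with a change of 0.42 ± 0.098 (SE), and *Vmp1*, an early ER factor, with 0.26 ± 0.060 (SE). With 1 library left out, the higher calls of this list numbered 1 without GC7 library 4 and 2 without Mock library 4.

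Lysosomal hydrolases and membrane proteins outside the 39 had 7 higher and 12 lower calls among 35 tested (38 listed) and a median of -0.12. The shares were 20% higher and 34.3% lower, beside 23.0% and 23.5% of all genes tested. The lower calls included *Smpd1*, acid sphingomyelinase, at 100.1 ± 7.1 CPM in Mock and 46.9 ± 3.7 CPM in GC7 (log2 fold change -1.09 ± 0.076 (SE), adjusted p = 1.68e-07), and *Ctsa*, cathepsin A, at 145 ± 13 CPM in Mock and 88.0 ± 4.6 CPM in GC7 (log2 fold change -0.72 ± 0.073 (SE), adjusted p = 4.35e-06). The higher calls were led by *Scarb2*, the membrane protein LIMP-2, at 76.6 ± 1.8 CPM in Mock and 116 ± 9.9 CPM in GC7 (log2 fold change 0.60 ± 0.067 (SE), adjusted p = 1.03e-05), by *Laptm4a* with 0.46 ± 0.072 (SE), and by *Lipa*, lysosomal acid lipase, with 0.44 ± 0.062 (SE).

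For the V-ATPase, the proton pump that acidifies lysosomes, 1 subunit rose and 4 fell of 17 tested, with a median of -0.12. That is 5.88% higher and 23.5% lower, beside 23.0% and 23.5% of all genes tested. *Atp6v0a1* was higher by 0.56 ± 0.12 (SE), and *Atp6v0d1* was lower, at 68.3 ± 6.9 CPM in Mock and 41.1 ± 3.2 CPM in GC7 (log2 fold change -0.73 ± 0.084 (SE), adjusted p = 1.27e-05), followed by *Atp6v1d* (-0.31 ± 0.081, SE) and *Atp6v1c1* (-0.30 ± 0.065, SE). The lower calls numbered 2 without Mock library 4 or without GC7 library 1. Of 13 genes for Rag GTPases, Ragulator and the folliculin complex, which place mTORC1 and TFEB on the lysosome, 2 rose and 5 fell. Shares in this list were 15.4% higher and 38.5% lower, beside the same shares of all genes tested. *Rragd*, a direct partner of TFEB and TFE3, was at 14.4 ± 2.3 CPM in Mock and 7.94 ± 0.70 CPM in GC7 (log2 fold change -0.86 ± 0.13 (SE), adjusted p = 0.000101), *Rraga* was at 50.1 ± 1.3 CPM in Mock and 32.5 ± 3.7 CPM in GC7 (log2 fold change -0.62 ± 0.082 (SE), adjusted p = 4.11e-05), and the Ragulator anchor *Lamtor1* changed by -0.46 ± 0.075 (SE). The folliculin partners *Fnip2* and *Fnip1* were higher, by 0.80 ± 0.13 (SE) and 0.43 ± 0.11 (SE). In this list the higher calls numbered 1 without GC7 library 1 or GC7 library 3, and the lower calls 3 without GC7 library 1, 2 or 4.

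**Figure D4:**
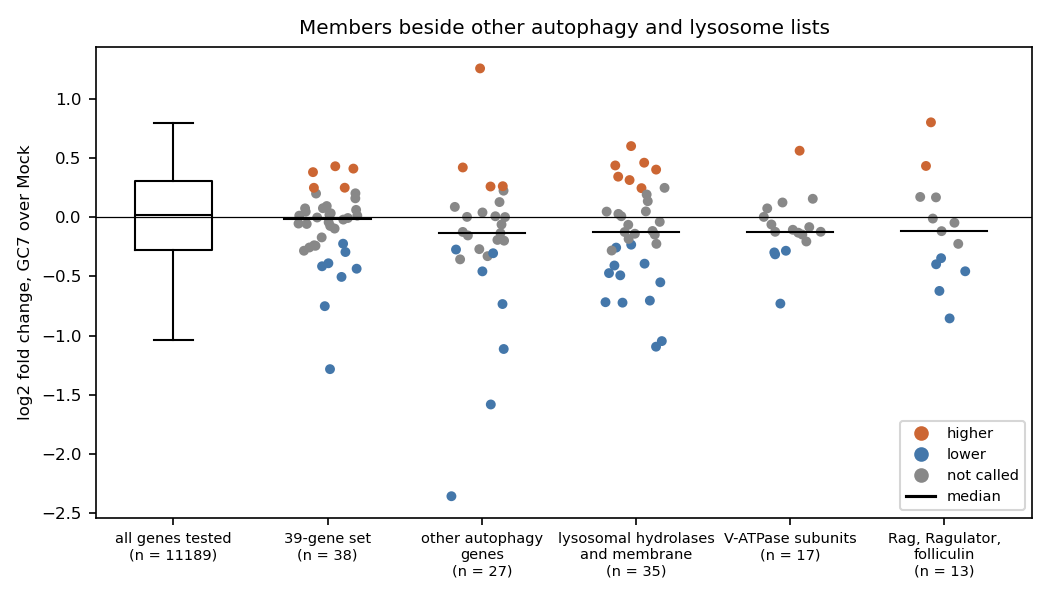
Log2 fold change of GC7 over Mock for the tested genes of the 39-gene set and of the 4 other lists, with a point per gene coloured by call and a bar at each median; the box for all 11189 genes spans the quartiles (-0.27 to 0.31) with whiskers at the 5th and 95th percentiles (-1.03 and 0.80). The 39-gene set sits close to 0, and *Bnip3* at -2.36 and *Trp53inp1* at 1.26 lie furthest out.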

How the data were processed

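The authors deposited raw counts per Ensembl gene, 1 table per library, for 4 GC7 and 4 Mock libraries. Per the study's methods and the submitters' processing notes, paired-end reads were trimmed with Cutadapt, aligned to GRCm38 with STAR and counted with featureCounts. The strand setting is not given in the sources used here. Groups came from the sample titles. Members and lists were chosen with earlier results of these data known. Counts were fitted with edgeR (version 4.0.16, R 4.3.3): TMM factors, group as the only term, quasi-likelihood F test, Benjamini-Hochberg adjustment over the 11189 genes above 3 CPM in 4 or more of 8 libraries, called at an adjusted p under 0.01. The fit was tested on simulated data for these genes. Every member is reported. Library values are given for the TFEB and ATG8 families and for called members (up to 8 per direction), and the 3 largest called changes per direction for each other list. Exons shared with other genes and copies of at least 200 bases and 90% identity (BLAST 2.17.0) were listed with the GENCODE M21 annotation. Alternatives were RLE factors, library totals, DESeq2 (version 1.42.0), limma-voom (limma version 3.58.1), no filter, filterByExpr, a replicate block and each library left out. Intervals on fitted changes are standard errors, taken as the absolute log2 fold change over the square root of the F statistic. Those on levels and shares are SDs over 4 libraries. Reads carried no molecular identifiers. One gene that the naming rule would include is not reported here.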

Additional observations from a re-analysis of the deposited data

Results flagged for a closer look

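A library that lay far from the other 3 of its group was looked for in each member by Dixon's ratio. This divides the distance between the extreme library and its neighbour by the group's range. Of 78 groups of 4 libraries, 7 passed the critical value, and about 3.9 would by chance. In GC7, library 3 was the high one for *Nbr1* (ratio 0.935, 71.5 CPM), *Lamp2* (0.940, 63.9 CPM) and *Ctsl* (0.877, 12.9 CPM). In Mock, library 2 was the high one for *Atg3* (0.873, 58.0 CPM) and *Gabarapl1* (0.834, 71.2 CPM), library 3 was high for *Optn* (0.871, 12.5 CPM) and library 1 was low for *Atg4b* (0.933, 53.4 CPM). *Gabarapl1* and *Lamp2* are called members. Without the distant library, *Gabarapl1* and *Lamp2* stayed higher with an adjusted p under 0.01.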

How the results depend on the processing

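All 13 called members kept their direction in the 15 alternatives, and 8 of them (*Pik3c3*, *Wipi1*, *Atg9a*, *Atg5*, *Map1lc3b*, *Sqstm1*, *Lamp1* and *Ctsd*) kept their call in each. *Atg7* lost its call in 11 alternatives, *Gabarapl1* in 9, *Tfeb* in 6, *Lamp2* in 3 and *Atg2a* in 1. Library totals, which shift the median of all genes by 0.09 log2 units, gave 5 lower members, 1 lower V-ATPase subunit and 3 lower Rag, Ragulator and folliculin genes. They also turned the uncalled changes of *Becn1* (0.088), *Atg14* (0.038), *Uvrag* (0.073), *Wipi2* (0.092), *Gabarap* (0.023), *Gabarapl2* (0.039) and *Nbr1* (0.051), and limma-voom that of *Ctsl* (-0.016). *Mitf* was the 1 member higher by over 2-fold with no filter and with filterByExpr. Its Mock libraries held 3 to 9 counts and its GC7 libraries 20 to 27, so it passed filterByExpr through the GC7 libraries alone. That call is therefore no support for a rise of the set. With a replicate block, the lower V-ATPase subunits numbered 2, and calls over all genes went from 5214 to 4867, while the adjusted p was 0.0174 for *Atg7* and 0.0203 for *Gabarapl1*, the called members that lost their call in that fit. Same-numbered libraries deviated with correlations of -0.183 to 0.272 (mean 0.044), and libraries of different numbers with -0.310 to 0.416 (mean -0.020). In all, 4 of 8 libraries correlated best with their own number. With 4 same-numbered pairs this cannot settle whether the numbers are pairs. The main fit left pairing out, and the block fit is given beside it. With each library left out in turn, members higher ranged from 3 to 5, other autophagy genes higher from 1 to 4, V-ATPase subunits lower from 2 to 4, Rag, Ragulator and folliculin genes higher from 1 to 2 and lower from 3 to 5. Over the same fits, uncalled changes crossed 0 for *Ulk1* (-0.028 to 0.099), *Rb1cc1* (-0.013 to 0.13), *Becn1* (-0.028 to 0.011), *Pik3r4* (-0.038 to 0.086), *Uvrag* (-0.052 to 0.010), *Wipi2* (-0.052 to 0.022), *Atg12* (-0.029 to 0.15), *Atg16l1* (-0.0094 to 0.049), *Map1lc3a* (-0.018 to 0.21), *Gabarap* (-0.13 to 0.012), *Gabarapl2* (-0.091 to 0.0022), *Ctsl* (-0.15 to 0.071) and *Mcoln1* (-0.038 to 0.055). For these genes, and for *Atg14* and *Nbr1*, no direction is drawn here. The cause of these differences was not tested. At 3 to 9 counts per Mock library, depth limits the size of the *Mitf* difference.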
